A study of Mus musculus with 8 samples.

Results

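The 37 genes described here are defining genes of T cells and natural killer (NK) cells: T cell receptor chains and co-receptors, T cell surface and signalling molecules, transcription factors, NK receptors, and genes of cytotoxic granules. Members were all probe sets whose only gene symbol in the platform annotation was 1 of these genes, which gave 55 of 45037 probe sets without controls. They covered 34 of the 37 genes (of 18193 genes measured in this way), 24 on the T cell side and 10 on the NK and cytotoxic side. Lck, Tcf7 and Klrb1c could not be followed, since the annotation gave none of them a probe set that it shared with no other gene. The series compared cells that did or did not express a green fluorescent protein (GFP) reporter for AID, the B cell enzyme that starts class switching and hypermutation. Total RNA of 8 samples from mice carrying that reporter was measured on Affymetrix arrays, 2 per group in 4 groups. The groups were BCR-ABL1 bone marrow cells that were GFP-negative or GFP-positive, and B cells of the spleen, treated with LPS and IL-4, that were GFP-negative or GFP-positive. Every group carried the reporter, so no array came from mice without it. The age and strain of the mice, the vector that carried BCR-ABL1, the promoter of the reporter and the steps used to purify the cells were not stated in the labels. The labels also leave the origin of the 2 replicates unstated, so p-values measure only the spread between these arrays, which may be technical.

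T cells recognise peptides on MHC molecules through a receptor whose signal is passed on by the CD3 chains and the zeta chain, with CD4 or CD8 as co-receptor. The kinase ZAP70 and the adaptor LAT carry that signal into the cell. NK cells lack this receptor and read target cells through lectin-like receptors such as CD94 and NKG2D. Both cell types kill by releasing perforin and granzymes. All of them live in the spleen beside B cells, and a few of the genes are also used by B cells in some states.

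Signals below are intensities after quantile normalization, on which a value of 32 is the floor. Values under the floor were raised to it, so a difference against a group at the floor on both arrays is given as "at least". Differences are log2 values ± standard error from limma over all 8 arrays, GFP-positive minus GFP-negative unless stated, and a gene is said to be higher or lower where the adjusted p was under 0.05. Each gene is given by its brightest probe set, the one with the highest mean over the 8 arrays, and other probe sets are given where they differ. The number of arrays, 2 per group, limits the precision. Trimmed mean deposited signals were 479 and 499.7 on the spleen GFP-negative arrays and ran from 591 to 596 on the other 6. The 3' to 5' ratios of the control Gapdh were 1.88 to 1.93 in spleen GFP-negative arrays against 1.40 to 1.48 over the other groups. B cell markers were present in every group, with summed signals of 52800.1 to 53902 in spleen GFP-negative, 38975 to 41057 in spleen GFP-positive and 29712 to 31156 in BCR-ABL1 arrays (9 genes). Of these 9, 6 were lower and 2 higher in spleen GFP-positive arrays, against 31.6% and 37.7% of all probe sets. In BCR-ABL1 GFP-positive arrays 2 were lower, against 0.888% of all probe sets. Of 5 dendritic markers tested, 2 were higher and 1 lower in spleen GFP-positive arrays. Plasma cell markers were lower in spleen GFP-positive arrays for 4 of 5 genes (summed signal 20370.4 to 20393 against 9567 to 9664). Myeloid markers were present as well in the spleen GFP-negative arrays (11 genes, summed signal 75587 to 77826), where 10 of 11 were above their level in spleen GFP-positive arrays by the test (summed signal 461 to 487, and 650.5 to 745 in BCR-ABL1 arrays). The part these other cells, the lower total signal and the RNA ratio had in the values below was not tested.

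The 3 CD3 genes are direct neighbours on 1 chromosome, and their promoters are shown because the CD3 transcripts were at or near the floor in 3 of the 4 groups. The promoter of Tbx21, the gene of the transcription factor T-bet, is shown because its transcript went the other way. Windows run from 250 bases before to 50 after the gene start, are from RefSeq (GRCm38.p6) and are written 5′ to 3′ on the gene's strand. Capitals mark exact matches, on either strand, to the ETS core AGGAAG, the RUNX core TGTGGT, the GATA motif AGATAA, the TCF/LEF motif CTTTGA or the T-box half-site AGGTGT. Matches of different motifs were counted separately, also where they shared bases.
Cd3e, chr9:45009562-45009861, minus strand: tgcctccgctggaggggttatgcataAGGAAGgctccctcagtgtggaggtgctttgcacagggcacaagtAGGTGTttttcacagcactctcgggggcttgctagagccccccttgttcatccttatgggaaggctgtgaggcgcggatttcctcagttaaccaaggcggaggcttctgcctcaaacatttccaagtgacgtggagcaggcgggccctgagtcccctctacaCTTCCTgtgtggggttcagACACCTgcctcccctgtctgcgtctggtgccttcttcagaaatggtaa
Cd3d, chr9:44981536-44981835, plus strand: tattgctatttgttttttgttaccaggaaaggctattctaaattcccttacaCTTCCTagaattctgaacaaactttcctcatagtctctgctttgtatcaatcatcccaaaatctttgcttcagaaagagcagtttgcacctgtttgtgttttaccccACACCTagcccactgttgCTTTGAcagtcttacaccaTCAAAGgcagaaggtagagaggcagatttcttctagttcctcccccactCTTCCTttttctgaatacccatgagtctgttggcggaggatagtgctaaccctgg
Cd3g, chr9:44980382-44980681, minus strand: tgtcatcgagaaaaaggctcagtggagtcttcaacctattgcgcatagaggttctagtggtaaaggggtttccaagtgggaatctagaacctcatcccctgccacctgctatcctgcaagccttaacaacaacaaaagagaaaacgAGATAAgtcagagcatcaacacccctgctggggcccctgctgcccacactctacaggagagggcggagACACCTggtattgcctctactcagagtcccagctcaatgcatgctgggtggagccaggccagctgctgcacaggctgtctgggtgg
Tbx21, chr11:97115282-97115581, minus strand: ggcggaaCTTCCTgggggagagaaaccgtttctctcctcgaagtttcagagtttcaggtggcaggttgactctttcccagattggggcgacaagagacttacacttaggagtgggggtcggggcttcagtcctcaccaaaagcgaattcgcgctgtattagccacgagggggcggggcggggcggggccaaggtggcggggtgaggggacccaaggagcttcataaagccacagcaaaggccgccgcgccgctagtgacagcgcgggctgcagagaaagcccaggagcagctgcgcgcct
The Cd3e window held 2 ETS and 2 T-box matches. The Cd3d window held 2 ETS, 2 TCF/LEF and 1 T-box match, and the Cd3g window 1 GATA and 1 T-box match. The Tbx21 window held 1 ETS match. Over all 32851 windows of the table, 35.4% held the ETS core, 16.8% the RUNX core, 11.2% the GATA motif, 16% the TCF/LEF motif and 13.7% the T-box half-site. Of 30 windows for 25 member genes, 50%, 40%, 10%, 26.7% and 30% held these 5 motifs in turn, which describes letters and not binding.

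In the spleen, the 3 CD3 transcripts of the T cell receptor complex were high on GFP-negative arrays and at or close to the floor on GFP-positive ones. Cd3e, the epsilon chain, had signals of 2955 and 3181 on the GFP-negative arrays and 38.1 and 46.6 on the GFP-positive arrays (-6.19 ± 0.16, adjusted p = 5.98e-07). Cd3d, the delta chain, had 3322 and 2436 against 42.8 and 39.6 (-6.11 ± 0.18). Cd3g, the gamma chain, had 2698 and 2327 on the GFP-negative arrays and was at 32 on both GFP-positive arrays, at least 78.3-fold lower. Both GFP-positive arrays lay below both GFP-negative arrays for these 3 genes, as for 36.2% of all probe sets. Cd3g was above the floor only on spleen GFP-negative arrays, so it could only be lower. The GFP-positive level of Cd3e was 1.37% of the GFP-negative level. In bulk RNA, fewer T cells and less of a transcript per T cell cannot be told apart.

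**Figure D1:**
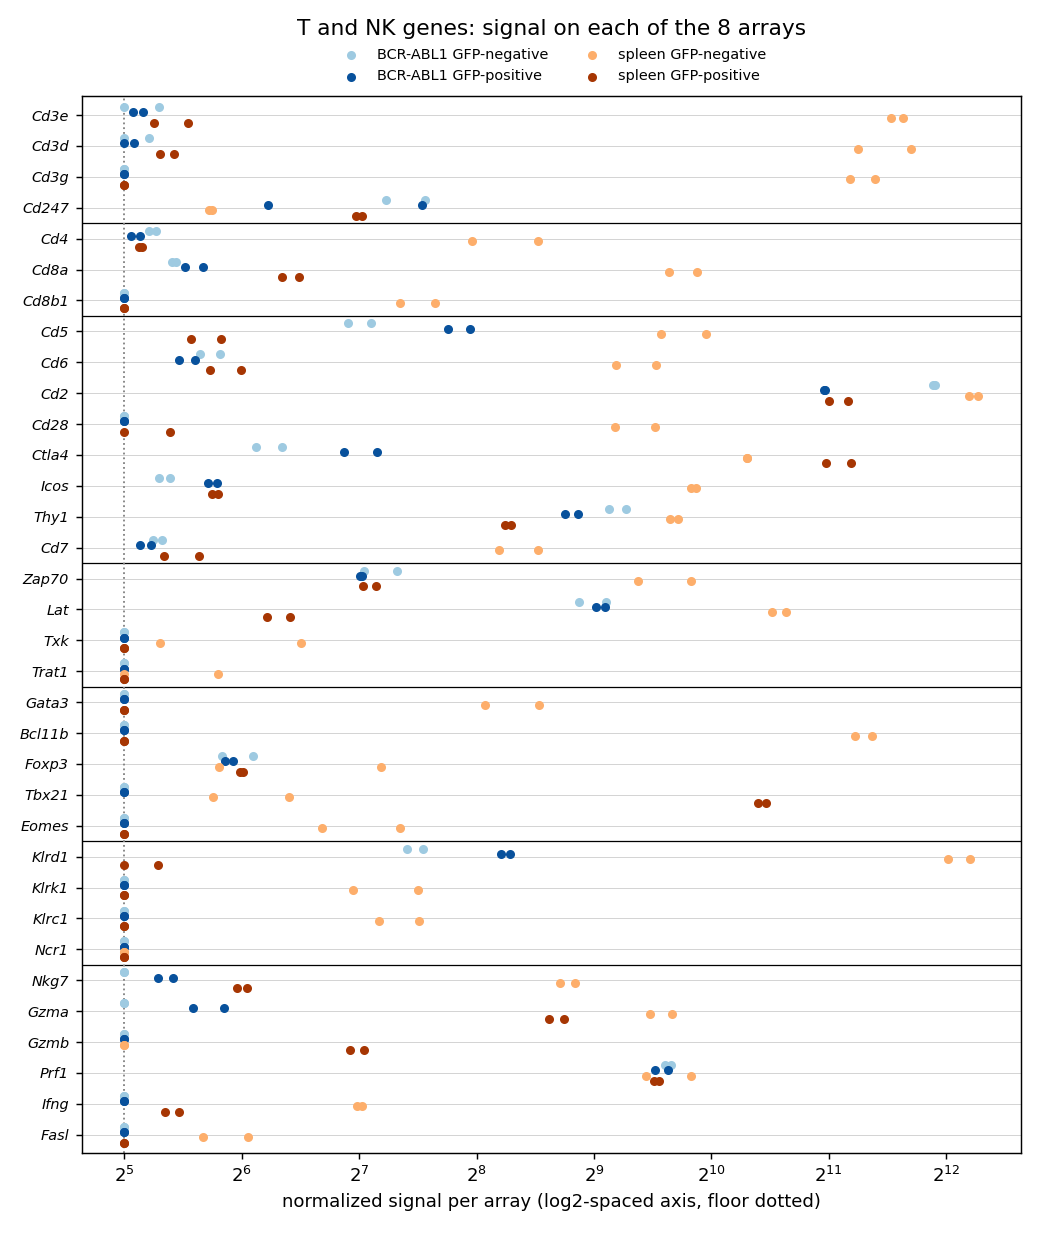
Normalized signal of the 34 genes with a probe set on each of the 8 arrays, on a log2-spaced axis, with 4 colours for the 4 groups and the floor of 32 as a dotted line. Most T cell genes lie far to the right only on the spleen GFP-negative arrays, as for Cd3e at 2955 and 3181, while Tbx21 and Gzmb lie furthest right on the spleen GFP-positive arrays.

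Cd247, the zeta chain, gave opposite results by probe set. Its brightest probe set was higher in GFP-positive arrays (53.8 and 52.8 against 126 and 130.2, 1.26 ± 0.39, adjusted p = 0.0259). That probe set also read 188 and 149.7 on the BCR-ABL1 GFP-negative arrays and 74.5 and 185 on the BCR-ABL1 GFP-positive arrays. A second probe set read 596 and 675 on the spleen GFP-negative arrays and 32 on all 6 others, at least 19.8-fold lower in spleen GFP-positive arrays. Another was lower as well (-0.92 ± 0.27, adjusted p = 0.0215), and the remaining one was at the floor on all arrays. With the mean of all probe sets Cd247 was lower (-0.99), and the higher call of the brightest was lost on the deposited scale, with a floor of 64, with array weights and without any single spleen array.

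The co-receptor genes Cd4, Cd8a and Cd8b1 were lower in spleen GFP-positive arrays (3 of 3), as were 31.6% of all probe sets tested, while 37.7% were higher. Cd4, which binds MHC class II, had 369 and 249 on the GFP-negative arrays and 34.8 and 35.6 on the GFP-positive arrays (-3.11 ± 0.18). Its other probe set did not pass (-0.25, adjusted p = 0.0672). Cd8a, which binds MHC class I, had 796 and 939 against 90.0 and 81.3 (-3.34 ± 0.14), so the GFP-positive arrays kept a level above the floor. Of its 4 other probe sets, 2 were lower, 1 did not pass and 1 was at the floor on all arrays. Cd8b1, the beta chain beside it on the chromosome, had 163 and 201 against 32 on both arrays, at least 5.64-fold lower. For each of the 3 co-receptor genes both GFP-positive arrays lay below both GFP-negative arrays, as for 36.2% of all probe sets. Cd8b1 was above the floor only on spleen GFP-negative arrays, so it could only be lower.

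Of the 8 other T cell surface genes, 7 were lower and 1 was higher in spleen GFP-positive arrays, against 31.6% and 37.7% of all probe sets. Cd28, the costimulatory receptor for B7 molecules, had 735 and 580.1 on the GFP-negative arrays and 41.9 and 32 on the GFP-positive arrays (-4.16 ± 0.17). Icos, the inducible costimulator of helper T cells, had 936 and 907 against 53.6 and 55.5 (-4.08 ± 0.11), and its 2 other probe sets were lower as well. Ctla4, the inhibitory receptor that shares the ligands of CD28, was higher instead, at 1266 and 1261 on the GFP-negative and 2011 and 2333 on the GFP-positive arrays (0.78 ± 0.14, adjusted p = 0.00228). These 3 genes lie in a row on 1 chromosome, with Ctla4 between Cd28 and Icos. Both GFP-positive arrays lay below both GFP-negative arrays for Cd28 and Icos, as for 36.2% of all probe sets, and above them for Ctla4. The share of all probe sets that lay above in spleen was not counted. The Ctla4 call was lost with array weights (adjusted p = 0.0523).

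Cd5, which dampens antigen receptor signals and is also carried by B-1 cells, had 989.7 and 759 on spleen GFP-negative and 47.6 and 56.5 on spleen GFP-positive arrays (-4.06 ± 0.18). Its neighbour and relative Cd6 had 740.3 and 585 against 53.1 and 63.6 (-3.50 ± 0.17). Cd7, found on T and NK cells, had 292 and 367 against 49.7 and 40.4 (-2.87 ± 0.16). Thy1 and Cd2 stayed well above the floor in both fractions. Thy1, the classical mouse T cell antigen, had 803 and 841 against 303 and 314 (-1.42 ± 0.091). Cd2, an adhesion molecule that mouse B cells also carry, had 4692 and 4937 against 2054 and 2292 (-1.15 ± 0.060), a level in GFP-positive arrays of 45.1% of that in GFP-negative arrays.

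Of 4 signalling genes measured, 2 were lower and 2 did not pass, where 31.6% of all probe sets were lower. Zap70, the kinase that docks on the phosphorylated receptor, had 664 and 906 on spleen GFP-negative and 131 and 141 on spleen GFP-positive arrays (-2.51 ± 0.18). Of its other probe sets 1 was lower (-1.14 ± 0.13) and 1 did not pass (-0.20, adjusted p = 0.165). Lat, the adaptor below ZAP70, had 1468 and 1593 against 85.0 and 74.4 (-4.27 ± 0.12, adjusted p = 7.7e-07). The Tec family kinase gene Txk had 90.9 and 39.5 against 32 on both arrays (adjusted p = 0.0507). Trat1, an adaptor bound to the receptor, had 55.7 and 32 against 32 on both (adjusted p = 0.165). The 2 GFP-negative arrays differed from each other for Txk and Trat1. Txk passed without GFP-negative replicate 1 (adjusted p = 3.32e-06) or 2 (adjusted p = 3.23e-08), where the lone array is assumed to vary like the other groups. Trat1 passed without replicate 2 (-0.77), and both genes passed on the deposited scale, after a median shift and with a floor of 16.

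Of 5 transcription factor genes measured, 3 were lower, 1 was higher and 1 did not pass, against 31.6% lower and 37.7% higher of all probe sets. Bcl11b, needed to commit progenitors to the T lineage, had 2394 and 2645 on the spleen GFP-negative arrays and 32 on the other 6 arrays, at least 78.6-fold lower in spleen GFP-positive arrays. All 3 other Bcl11b probe sets were lower too, with 2 of them at the floor on both GFP-positive arrays and the last at -0.77 on the log2 scale. Gata3, the factor of type 2 helper cells, had 371 and 269 against 32 on both (at least 9.86-fold lower). Eomes, a factor of NK and memory CD8 cells, had 163 and 103 against 32 on both (at least 4.05-fold lower). In all 3 genes both GFP-negative arrays were above both GFP-positive arrays, as for 36.2% of all probe sets. By their brightest probe sets these 3 genes were above the floor only on spleen GFP-negative arrays, so they could only be lower.

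Tbx21, which belongs to the same family as Eomes, was higher in spleen GFP-positive arrays. T-bet, its product, directs type 1 responses in T and NK cells and class switching in some activated B cells. Tbx21 had 84.5 and 54.1 on the spleen GFP-negative arrays and 1346 and 1415 on the spleen GFP-positive arrays, 20.4-fold higher (4.35 ± 0.21, adjusted p = 5.17e-06), and was at 32 on all 4 BCR-ABL1 arrays. The 95% interval of the Tbx21 difference was 3.85 to 4.85 on the log2 scale. Foxp3, the factor of regulatory T cells, had 145 and 55.9 against 63.4 and 64.3 and did not pass (adjusted p = 0.309). The GFP-positive values of Foxp3 lay between the 2 GFP-negative values, and without GFP-negative replicate 2 it was lower (-1.23).

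**Figure D2:**
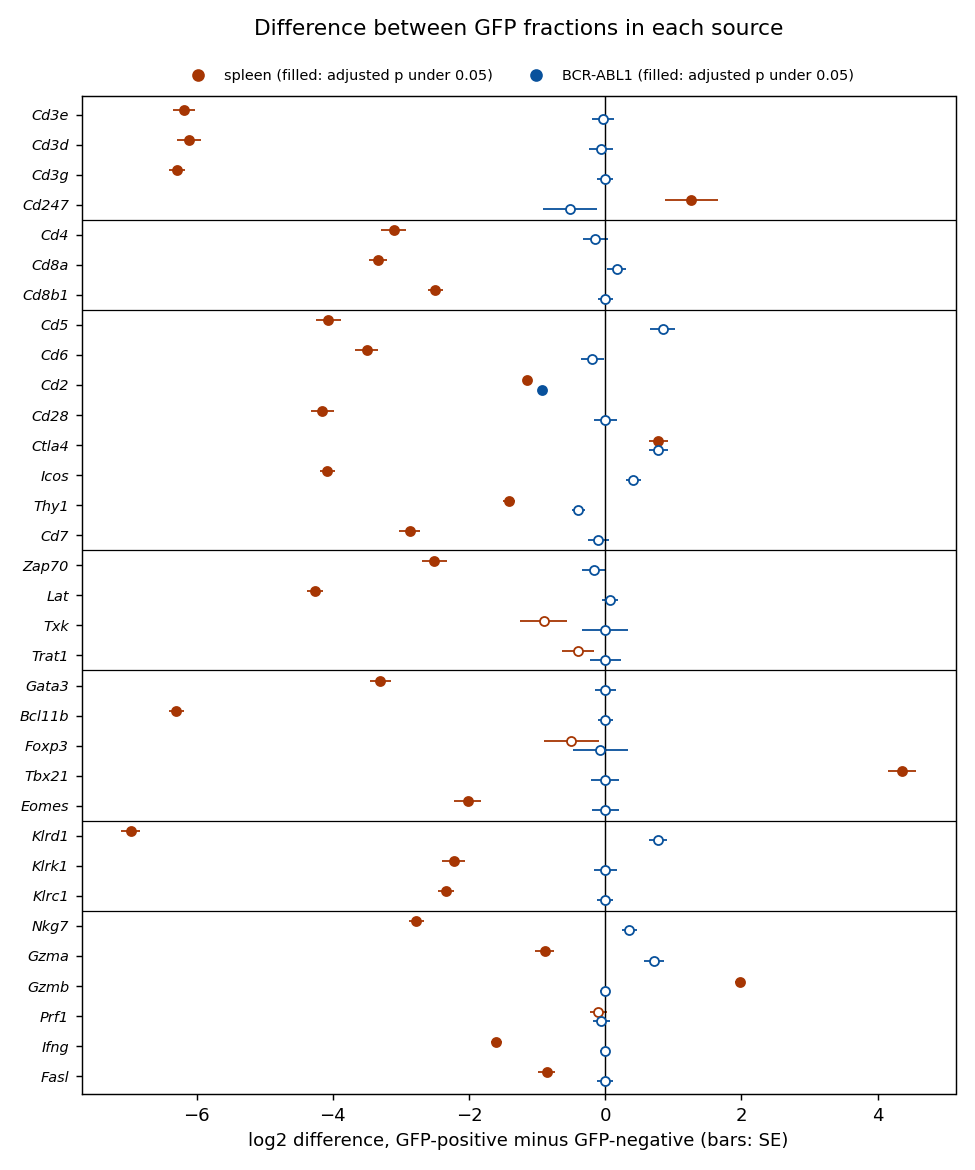
Log2 difference between GFP-positive and GFP-negative arrays for the 33 tested genes, in spleen (brown) and in BCR-ABL1 cells (blue), with SE as bars and filled points where the adjusted p was under 0.05. The spleen points of the CD3 genes, Bcl11b and Klrd1 lie beyond -6 (those of Cd3g and Bcl11b are bounds set by the floor), those of Tbx21, Gzmb, Ctla4 and Cd247 lie above 0, and of the BCR-ABL1 points only Cd2 is filled.

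NK receptor genes were lower in spleen GFP-positive arrays wherever they were measurable (3 of 3 tested, against 31.6% of all probe sets). Of these, Klrk1 and Klrc1 were above the floor only on spleen GFP-negative arrays, so they could only be lower. Klrd1, which encodes CD94, had 4712 and 4135 on the GFP-negative and 32 and 39.0 on the GFP-positive arrays (-6.97 ± 0.14, adjusted p = 3.26e-07), 125-fold lower with 1 GFP-positive array at the floor. Its neighbour Klrk1, which encodes NKG2D, had 181 and 123 against 32 on both (at least 4.66-fold lower). Klrc1, the NKG2A partner of CD94, had 182 and 144 against 32 on both (at least 5.06-fold lower), and its second probe set was at the floor on all arrays. Ncr1, the NK receptor NKp46, was at 32 on all 8 arrays and could not be tested. Klrc1 has close relatives whose transcripts may share its probes.

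Of 6 genes of cytotoxic granules and effector products, 4 were lower, 1 was higher and 1 did not pass in spleen GFP-positive arrays (69.2% of all probe sets were called in either direction). Fasl was above the floor only on spleen GFP-negative arrays and Gzmb only on spleen GFP-positive arrays, which fixed their directions. Nkg7, a granule membrane protein, had 419 and 458 on the GFP-negative and 66.2 and 62.1 on the GFP-positive arrays (-2.77 ± 0.11). Ifng, the cytokine interferon gamma, had 127 and 129.8 against 44.2 and 40.6 (-1.60 ± 0.076). Fasl, the ligand of the death receptor FAS, had 66.5 and 50.8 against 32 on both (at least 1.82-fold lower), a call that ended with a floor of 64.

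Granzymes and perforin are the contents of the granules. Gzma, the serine protease granzyme A, had 809.9 and 715 on the spleen GFP-negative arrays and still 429 and 393 on the GFP-positive arrays (-0.89 ± 0.14, adjusted p = 0.00136), or 54.0% of the GFP-negative level. That call was lost on the deposited scale (-0.35, adjusted p = 0.0987) and after a median shift (-0.19, adjusted p = 0.339). Gzmb, granzyme B, was at 32 on both GFP-negative arrays and at 121 and 132 on the GFP-positive arrays, at least 3.95-fold higher (adjusted p = 1.88e-06), and it has close relatives whose transcripts may share its probes. Prf1, the pore-forming protein perforin, had 696 and 907 against 730.0 and 751 and did not pass (adjusted p = 0.509), with a 95% interval of -0.41 to 0.21. The 4 BCR-ABL1 arrays read 777 and 807 and 733 and 792 for Prf1, so both spleen GFP-positive arrays lay within the range of the spleen GFP-negative arrays and below both BCR-ABL1 GFP-negative arrays. Prf1 depended on the scale, being higher in spleen GFP-positive arrays on the deposited scale (0.44) and after a median shift (0.60), and lower without GFP-negative replicate 1 (-0.29).

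**Figure D3:**
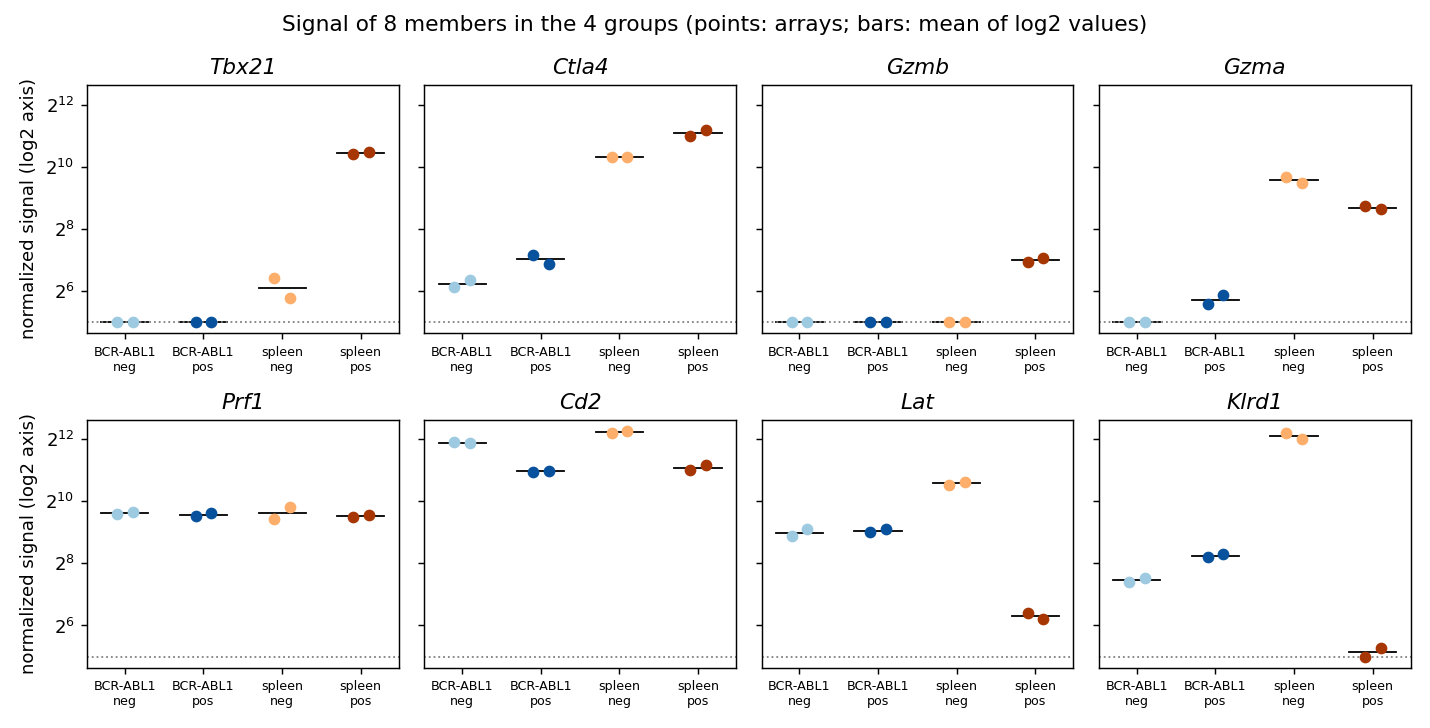
Normalized signal of 8 members on a log2 axis, with 2 arrays as points and the mean of the log2 values as a bar in each of the 4 groups. Tbx21, Ctla4 and Gzmb are highest on spleen GFP-positive arrays, the 2 spleen GFP-positive arrays of Prf1 lie between its 2 spleen GFP-negative arrays, and Lat and Klrd1 are lowest on spleen GFP-positive arrays.

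By probe set, 37 of 50 tested members were lower and 4 higher in spleen GFP-positive arrays, against 31.6% lower and 37.7% higher of all 35710 probe sets tested (69.2% in either direction). The median difference was -2.13 over these members and 0.05 over all probe sets. By gene, 25 of 33 were lower, 4 higher and 4 did not pass. Cd247 is counted as higher by its brightest probe set, although other probe sets of Cd247 were lower. On the T cell side 18 genes were lower, 3 were higher and 3 did not pass, and on the NK and cytotoxic side 7 were lower, 1 was higher and 1 did not pass. Both GFP-positive arrays lay below both GFP-negative arrays for 26 of 34 genes, against 36.2% of all probe sets. A fall of over 10-fold was called for 11 genes, against 2.62% of all probe sets. Of the 50 member probe sets, 17 were above the floor only on spleen GFP-negative arrays and could only be lower in the GFP-positive ones, as could 8.52% of all probe sets, so these counts are given as a description.

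Probe sets of the same gene had the same direction for Icos (3 of 3 lower) and Bcl11b (4 of 4 lower). The brightest Icos probe set had -4.08, and the other two, at the floor on both GFP-positive arrays, were at least 31.6-fold and at least 13.4-fold lower. Both probe sets of Cd28 and of Eomes were lower, the second ones by at least 5.20-fold and at least 3.03-fold. Prf1 had a second probe set that did not pass either (-0.24, adjusted p = 0.13). It read much lower than the brightest, at 82.5 and 82.9 on the spleen GFP-negative and 78.3 and 62.9 on the spleen GFP-positive arrays. The probe sets of Fasl disagreed, since the brightest was lower and the second did not pass (adjusted p = 0.22).

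**Figure D4:**
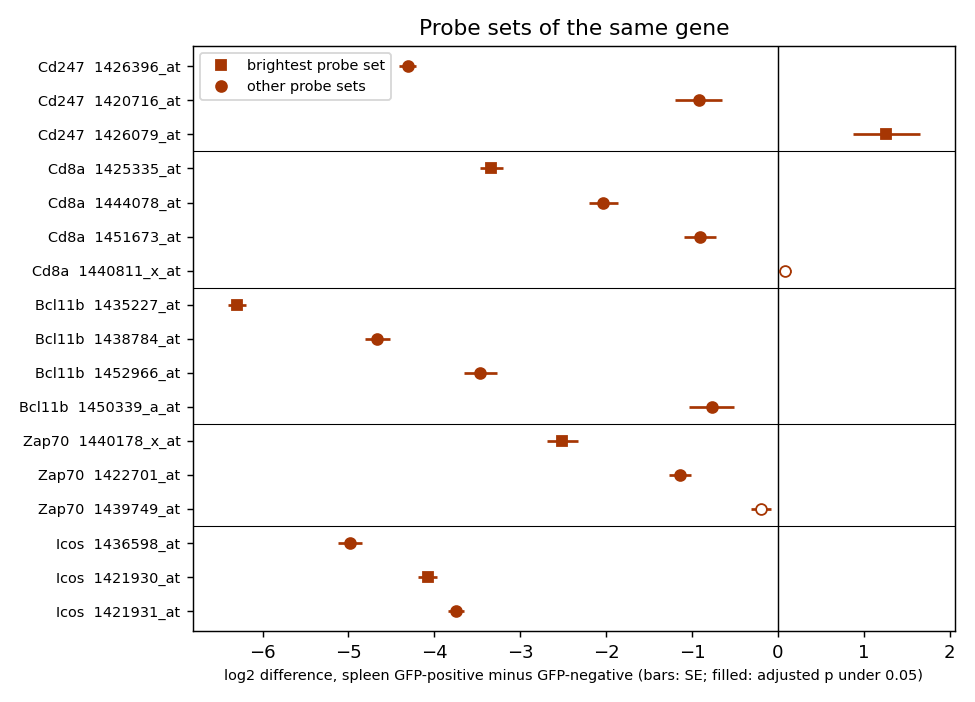
Log2 difference in spleen (GFP-positive minus GFP-negative) for each tested probe set of 5 genes, with SE as bars, squares for the brightest probe set and filled symbols where the adjusted p was under 0.05. The 3 tested probe sets of Cd247 run from -4.31 (a bound set by the floor) to 1.26, whereas those of Bcl11b and Icos all lie below 0.

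In BCR-ABL1 cells, which carry B cell markers, most T and NK genes were at or near the floor in both GFP fractions, and Cd2 was the 1 member called. Cd2 had 3823 and 3793 on the GFP-negative and 1994 and 2006 on the GFP-positive arrays (-0.93 ± 0.060, adjusted p = 0.00132), with no overlap. This 1 call among 50 probe sets (2%) compares with 1.90% called over all probe sets (1.02% higher and 0.888% lower). Of 34 genes, 17 were at 32 on both GFP-negative arrays and 15 on both GFP-positive arrays, and 7 had both GFP-positive arrays above both GFP-negative arrays, against 20.3% of all probe sets. Another 6 had both below, against 19.5% of all probe sets. Cd3g, Cd8b1, Bcl11b, Gata3, Eomes, Klrk1 and Klrc1 were at the floor on all 4 BCR-ABL1 arrays by their brightest probe sets, while 1 other Bcl11b probe set was above it on all 4.

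A few members had a measurable level in BCR-ABL1 cells. Klrd1 had 169 and 186 on GFP-negative and 296 and 313 on GFP-positive arrays (0.78 ± 0.14, adjusted p = 0.0527). Ctla4 had 69.7 and 81.0 against 142 and 117 (0.78 ± 0.14, adjusted p = 0.0541). Cd5 had 120.1 and 138 against 216 and 246 (0.84 ± 0.18, adjusted p = 0.0953). Gzma had 32 on both against 47.9 and 57.7 (at least 1.64-fold above, adjusted p = 0.0766). None of these 4 passed, although in each both GFP-positive arrays lay above both GFP-negative ones, as for 20.3% of all probe sets. Each of the 4 passed under several alternatives, among them array weights, the 60th percentile filter and the 4 BCR-ABL1 arrays alone. These 3 settings called 2077, 645 and 1506 of all probe sets they tested, against 680 in the main fit. The filter acts on the mean over all 8 arrays, so it can keep a gene such as Gzma through its spleen signal. None of the 4 passed with the replicate block. Lat had 469 and 548 against 518 and 548 (0.07, 95% interval -0.22 to 0.36). Thy1 had 559 and 619.8 against 431 and 465 (-0.39 ± 0.091, adjusted p = 0.121).

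The test of the difference between both GFP effects, spleen minus BCR-ABL1, called 34 member probe sets lower and 3 higher, against 27.6% lower and 32.7% higher over all probe sets (60.2% in either direction). The 3 higher were Tbx21, Gzmb and the brightest probe set of Cd247 (1.78 ± 0.56). Tbx21 and Gzmb were at the floor on all 4 BCR-ABL1 arrays, so their effect there is set to 0 by the floor and the size of the difference is not known. Ctla4, with a like value in both sources, had a 95% interval of -0.48 to 0.47 for the difference (adjusted p = 0.992) and so can differ by up to that size. Cd2 had -0.22 ± 0.085 (95% interval -0.43 to -0.01, adjusted p = 0.0628) and Prf1 -0.05 ± 0.18 (95% interval -0.48 to 0.39). This comparison shares its arrays with both GFP comparisons.

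Between the GFP-positive cells of the 2 sources, spleen minus BCR-ABL1, 9 member probe sets were higher and 4 lower of 50, against 16.7% and 17.2% of all probe sets. Higher in spleen were Tbx21 (5.43, against arrays at the floor), Ctla4 (4.07 ± 0.14), Gzma (2.97 ± 0.14) and Gzmb (1.98, against arrays at the floor). Cd8a (0.83 ± 0.14), Nkg7 (0.65 ± 0.11) and Ifng (0.41, against arrays at the floor) were higher by less, as were the second probe sets of Cd4 (0.45 ± 0.10) and Prf1 (0.52 ± 0.12). Lower in spleen were Klrd1 (-3.11 ± 0.14), Lat (-2.74 ± 0.12), Cd5 (-2.15 ± 0.18) and Thy1 (-0.54 ± 0.091). For the CD3 genes no difference passed: Cd3e had 0.28 ± 0.16 (95% interval -0.11 to 0.67), Cd3d had 0.32 ± 0.18 (95% interval -0.10 to 0.75) and Cd3g was at the floor on all 4 arrays.

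Other genes of the same pathways, listed apart from the members, were lower in spleen GFP-positive arrays in most cases. Of 25 other T cell genes tested, 20 were lower, 3 higher and 2 did not pass (median -1.48, against 0.05 over all probe sets, of which 31.6% were lower and 37.7% higher), with 17 and 16 lower on the deposited scale and after a median shift. Fyb, a T cell and myeloid adaptor, had 5444 and 5432 on the GFP-negative and 32 on both GFP-positive arrays (at least 169.9-fold lower), and Sh2d1a, the adaptor SAP, had 1057 and 928 against 32 on both (at least 31.0-fold lower). Some of these genes, Fyb and Sh2d1a among them, were above the floor only on spleen GFP-negative arrays and could only be lower. Those higher were Sit1 (1.75 ± 0.19), the chemokine receptor gene Cxcr3 (0.99 ± 0.16) and Slamf6 (0.65 ± 0.094). Of 19 other NK and cytotoxic genes tested, 12 were lower, 2 higher and 5 did not pass (median -1.86), where 69.2% of all probe sets were called in either direction. Klra8, the Ly49H receptor, whose close relatives may share its probes, had 1434 and 1355 against 32 on both (at least 43.6-fold lower), and Ctsw, a protease of cytotoxic cells, had 1633 and 1469 against 61.3 and 96.5 (-4.33 ± 0.22). The granzyme gene Gzmc was at 32 on both GFP-negative arrays and at 128 and 97.6 on the GFP-positive ones, and Serpinb9, an inhibitor of granzyme B, had 364 and 270.4 against 1942 and 1669.9 (2.52 ± 0.16). Ccl5, a chemokine of T and NK cells, had 3106 and 2922 against 2798 and 2882 and did not pass (-0.09, 95% interval -0.31 to 0.13), while it was at 32 on all 4 BCR-ABL1 arrays. In BCR-ABL1 cells 1 of the 25 other T cell genes was higher and 3 were lower, against 1.02% and 0.888% of all probe sets, and 0 of the 19 other NK and cytotoxic genes passed by limma (2 had an unadjusted p under 0.05).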

How the data were processed

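The authors' deposited table holds linear signal intensities of 45101 probe sets on 8 arrays, and the submitters' processing notes name GCOS 1.3. How probes were summarised and scaled is not given here by any source. After 64 controls were left out, arrays were quantile normalized (the highest trimmed mean was 1.24 times the lowest, over the 10% tolerance), values under 32 were set to 32 and log2 was taken. The 35710 probe sets above 32 on at least 1 array were fitted with limma 3.58.1 in R 4.3.3 (1 mean per group, eBayes with trend, 4 residual degrees of freedom), with Benjamini-Hochberg adjustment over all of them. The code was run on simulated normal values with shifts in bright probe sets only, which does not show how calls behave near the floor. No filter on mean level was used. The floor filter also keeps probe sets through 1 group alone, as it did for 17 of the 50 member probe sets tested. The smallest two-sided p of an exact permutation of 2 against 2 arrays is 0.333, so calls rest on the model. Members and lists were chosen with earlier results of these data known. The rule for naming allowed all members, and others from fixed lists, of which those printed were picked after their values were seen. Symbols of all 55 probe sets matched by Entrez ID. Alternatives changed scale, floor, filter, moderation, probe set rule, weights, block and arrays.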

Additional observations from a re-analysis of the deposited data

Results flagged for a closer look

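The GFP effect differed between spleen and BCR-ABL1 cells, by the test of the difference itself (limma, adjusted p under 0.05), for 27 of the 33 member genes tested, against 60.2% of all probe sets. Each is given as spleen minus BCR-ABL1 on the log2 scale. The values of Cd3g, Cd8b1, Gata3, Bcl11b, Eomes, Klrk1, Klrc1, Gzmb and Fasl are limited by the floor, since 1 spleen group and all 4 BCR-ABL1 arrays were at 32, and are fitted values of unknown true size. For Cd28, Tbx21 and Ifng the BCR-ABL1 effect is set to 0 by the floor on all 4 arrays, and for Nkg7 and Gzma the BCR-ABL1 GFP-negative arrays were at the floor. Receptor and co-receptor genes had -6.16 for Cd3e, -6.05 for Cd3d, -6.29 for Cd3g, -2.96 for Cd4, -3.51 for Cd8a and -2.50 for Cd8b1, while the brightest probe set of Cd247 had 1.78. Surface genes had -4.91 for Cd5, -3.31 for Cd6, -4.16 for Cd28, -4.49 for Icos, -1.02 for Thy1 and -2.76 for Cd7. Signalling genes and transcription factors had -2.34 for Zap70, -4.34 for Lat, -3.30 for Gata3, -6.30 for Bcl11b, -2.02 for Eomes and 4.35 for Tbx21. NK receptors had -7.74 for Klrd1, -2.22 for Klrk1 and -2.34 for Klrc1. Effector genes had -3.13 for Nkg7, -1.61 for Gzma, 1.98 for Gzmb, -1.60 for Ifng and -0.86 for Fasl.

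For Cd5, Klrd1, Gzma, Icos, Nkg7 and Cd8a both GFP-positive arrays lay below both GFP-negative arrays in spleen and above them in BCR-ABL1 cells. The BCR-ABL1 effects of these genes did not pass on their own. Of all probe sets, 36.2% lay below in spleen and 20.3% lay above in BCR-ABL1 cells, and the share with both was not counted.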

How the results depend on the processing

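In spleen, 41 member probe sets were called, 39 to 42 without any single array, and 8 of the 9 that passed a 60th percentile filter. All other alternatives for this count stayed within 1.5 times. The rules with 1 value per gene count genes, 30 of 33 with the brightest probe set and 29 of 33 with the mean of probe sets. The difference between both GFP effects called 37, 35 to 39 without any single array and 6 with the 60th percentile filter. The comparison of the GFP-positive cells called 13, 11 to 14 without any single array and 6 with that filter. In BCR-ABL1 cells 1 was called, and also 1 without any single array and with the replicate block. The BCR-ABL1 count was 2 after a median shift, with a floor of 16 and with log2 of the value plus 32. It was 3 on the deposited scale, with a floor of 64, without trend and with robust fitting, 4 with the 40th percentile filter or the brightest probe set, and 5 with the 60th percentile filter, the mean of probe sets or the 4 BCR-ABL1 arrays alone. It was 8 with array weights. A filter tests fewer probe sets, and the cause of the other changes was not tested.

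Directions reversed for Cd247 and Prf1. With the mean of probe sets Cd247 had -0.99 in spleen and -0.84 for the difference between effects. Prf1 had 0.44 and 0.60 in spleen, and 0.48 and 0.62 for the difference between effects, on the deposited scale and after a median shift. That shift moved the median of all probe sets in spleen from 0.05 to 0.21.

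Of all 35710 probe sets, 680 were called in BCR-ABL1 cells, but 178 to 713 without any single array (225 and 258 without BCR-ABL1 GFP-negative replicate 1 and 2, 178 and 203 without GFP-positive replicate 1 and 2, 345 and 348 without spleen GFP-positive replicate 1 and 2), 394 with the replicate block, 2077 with array weights and 1506 with the 4 BCR-ABL1 arrays alone. In spleen 24723 were called, and 14564 with the 60th percentile filter, 10725 with the brightest probe set and 10695 with the mean per gene. The filter tests fewer probe sets and the rules with 1 value per gene count genes, so these counts have different denominators. For the difference between effects the same 4 counts were 21514, 13145, 9397 and 9368. For the GFP-positive cells 12096 were called, 6268 and 6050 with 1 value per gene, and 7870 without BCR-ABL1 GFP-positive replicate 1. Replicate numbers are shared by the groups, and deviations of same-numbered arrays correlated at 0.11 in BCR-ABL1 and 0.29 in spleen, but nothing in the labels ties them. With the replicate block the members called were 42 in spleen, 38 for the difference and 13 for the GFP-positive cells, with Txk called lower in spleen and Cd2 lower for the difference.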
